A study of Mus musculus with 14 samples.

Results

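The genes described are the 8 that encode the CD8 coreceptor (Cd8a and Cd8b1), the signalling chains of the T cell receptor complex (Cd3e, Cd3d, Cd3g and Cd247) and the first kinases to act after the receptor binds antigen (Lck and Zap70). They were taken by gene symbol from a table of 10106 genes, and all 8 were present once and passed the filter on low values that left 9793 genes for testing. The RNA came from OT-I cells, CD8+ T cells whose transgenic T cell receptor recognises the ovalbumin peptide SIINFEKL on the class I molecule H-2Kb. They were taken from OTI mice, labelled with CFSE, a dye diluted by division, and injected on day 0 into CD45.2+ C57BL/6 recipients, and the age given is 8 to 12 weeks. The antigen dose of 223 pmol followed intravenously on day 1, and OT-I cells were recovered from the spleen on day 4.

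The 5 groups differed in what was injected on day 1. Naive recipients received saline (3 libraries). OVA recipients received free ovalbumin (3 libraries), and SIINFEKL recipients received the free peptide (2 libraries). ERY1-OVA and TER119-SIINFEKL are forms of the protein and of the peptide that bind to erythrocytes (3 libraries each). They are named for ERY1, a peptide, and TER119, an antibody, which both recognise mouse erythrocytes. All groups carried the same transgenic receptor, so a single antigen specificity was followed. All 14 samples were also sorted as viable cells positive for CD45.1, CD3e and CD8 protein, so cells that had lost surface CD3 or CD8 were not sampled. The labels do not say whether the libraries of a group came from separate mice. The p-values therefore measure the spread between these samples.

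The T cell receptor itself has no enzymatic tail. It signals through the CD3 gamma, delta and epsilon chains and the zeta chain, whose cytoplasmic motifs are phosphorylated by LCK and then recruit ZAP-70. CD8, an alpha-beta heterodimer on most peripheral cytotoxic T cells, binds the class I molecule and carries LCK to the engaged receptor. After antigen binding, receptor complexes are internalised, and cells can also adjust the transcripts of the complex.

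Before the results, a few facts of the libraries bear on them. Summed over the 7 of 10 listed CD8 T cell markers found in the table, which include 5 of the 8 genes, levels were 2454.3 to 3952.8 RPKM (reads scaled to gene length and library size), and over the 3 of 4 listed CD4 T cell markers found they were 3.5 to 14.8 RPKM. OVA replicate 1 and TER119-SIINFEKL replicate 1 stood apart: the 9 of 15 myeloid and dendritic cell markers found summed to 114.5 and 67.5 RPKM there, against at most 58.5 RPKM in the other 12 libraries. No listed marker found in the table was at 0. The 4 of 11 B cell markers found summed to 12.5 to 26.2 RPKM in Naive libraries and 27.6 to 29.3 RPKM after TER119-SIINFEKL. These markers did not move together. Cd22 was 0.32 to 0.43 RPKM in Naive libraries and up to 12.42 RPKM elsewhere, and Cd79b 8.12 to 9.96 and up to 17.64 RPKM. Igj and Blk had their highest values in Naive libraries, at 17.17 and 2.14 RPKM. Over all libraries the 3 of 5 NK cell markers found summed to 16.4 to 54.6 RPKM, and Eomes alone was 12.18 to 50.18 RPKM. The 1 of 5 gamma delta T cell markers found was at 1.3 to 8.2 RPKM over all libraries. The 2 of 10 erythroid and platelet markers found summed to at most 20.3 RPKM. Long genes also read low in OVA replicate 1 and TER119-SIINFEKL replicate 1 (rank correlation of a gene's deviation with exon length -0.47 and -0.46). Trends with length were not limited to these libraries. The correlation was 0.50 in TER119-SIINFEKL replicate 2, 0.45 in OVA replicate 3, 0.39 in ERY1-OVA replicate 1 and -0.33 in ERY1-OVA replicate 2. In the reference group it was 0.33 in Naive replicate 2. The SIINFEKL pair differed from each other more than the libraries of other groups did (within-group SD over all genes 0.416, against 0.226 to 0.255 on the log2 scale). Read counts were not used, so the depth behind the values is unknown. In bulk RNA, fewer cells of a type and less RNA per cell cannot be told apart.

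All 8 genes were abundant transcripts. On the RPKM scale, which allows genes to be compared per length, Cd8b1 had the highest level of the 8 in every Naive library (960.1 to 1047.9), and Zap70 the lowest in Naive libraries (94.8 to 111.2). Cd3g lay between 524.1 and 636.3 RPKM in Naive cells, Cd3e between 405.3 and 431.1, Cd3d between 385.7 and 524.6, Lck between 379.5 and 486.3, Cd8a between 354.1 and 398.5, and Cd247 between 179.1 and 189.7. By level, Zap70 ranked between 523 and 818 of the 10106 genes over the libraries, while Cd8b1 ranked between 134 and 192 in all libraries. Of the summed RPKM of the 4 CD3 and zeta transcripts, that of the zeta chain made up 10.6% to 12.0% in Naive libraries and 8.7% to 12.8% in antigen libraries.

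**Figure D1:**
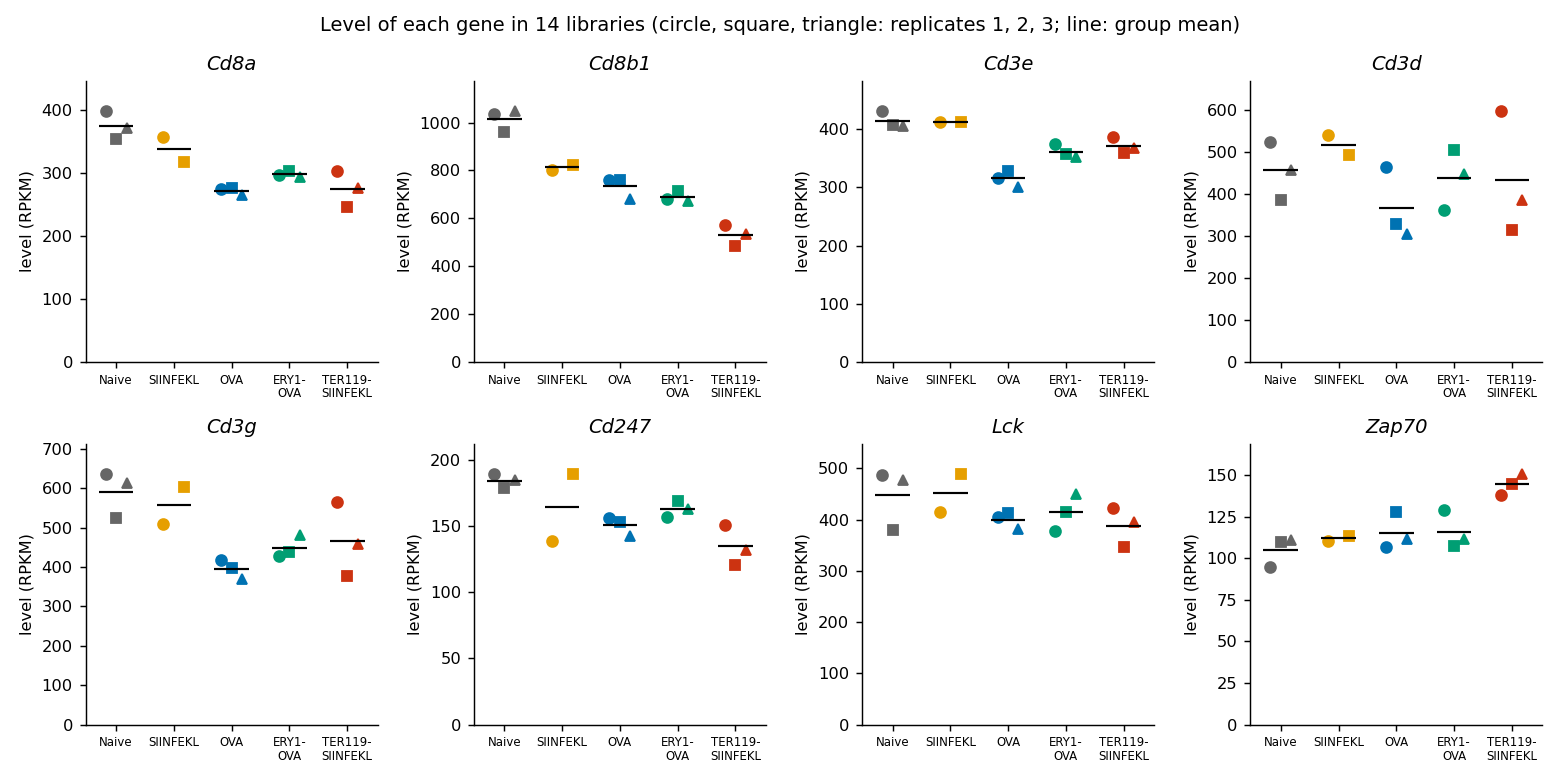
Level of each gene (vertical axis, RPKM, from 0) in the 14 libraries by group, where each point is a library, its shape the replicate number and the line the group mean. Cd8b1 is below all Naive libraries in all 11 antigen libraries, Zap70 is highest in the 3 TER119-SIINFEKL libraries, and Cd3d scatters widely within groups.

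The genes lie in 5 places in the genome (GRCm38, GENCODE annotation). Cd8b1 (chr6:71322788-71337494, plus strand) and Cd8a (chr6:71373427-71379173, plus strand) are neighbours 35932 bp apart with no protein-coding gene between them. The CD3 genes form a cluster of Cd3g (chr9:44969572-44980431, minus strand), Cd3d (chr9:44981786-44987339, plus strand) and Cd3e (chr9:44998740-45009627, minus strand), in which Cd3g and Cd3d are divergent genes 1354 bp apart. Cd247 (chr1:165788681-165877277, plus strand) and Zap70 (chr1:36761798-36782818, plus strand) share a chromosome, and Lck lies at chr4:129548344-129573641 on the minus strand.

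The 250 bases before the annotated start are shown for a gene of each role that changed after antigen: Cd8a for the coreceptor, Cd3g and Cd247 for the receptor chains, and Zap70, the member that moved up. They were taken from RefSeq on GRCm38.p6, which held a window ending at the GENCODE start for 6 of the 8 genes. Capitals mark matches on either strand to short motifs of factor families known in T cells. TGTGGT stands for the RUNX family. For the ETS family AGGAAG was searched. The E protein motif was CAGGTG. The motif searched for the GATA family was AGATAA. No matches overlap. The table held 3 starts for Zap70, and the window shown ends at the GENCODE start.

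Cd8a, chr6:71373177-71373426, plus strand: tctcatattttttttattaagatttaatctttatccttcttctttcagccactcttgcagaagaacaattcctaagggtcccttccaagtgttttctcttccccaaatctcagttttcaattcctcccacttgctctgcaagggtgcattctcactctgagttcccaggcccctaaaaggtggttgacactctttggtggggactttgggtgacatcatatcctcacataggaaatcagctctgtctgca
Cd3g, chr9:44980432-44980681, minus strand: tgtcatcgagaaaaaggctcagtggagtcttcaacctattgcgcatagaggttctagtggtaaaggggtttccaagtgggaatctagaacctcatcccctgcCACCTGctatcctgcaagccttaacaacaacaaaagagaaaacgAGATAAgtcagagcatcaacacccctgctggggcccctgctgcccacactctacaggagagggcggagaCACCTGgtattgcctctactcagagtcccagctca
Cd247, chr1:165788431-165788680, plus strand: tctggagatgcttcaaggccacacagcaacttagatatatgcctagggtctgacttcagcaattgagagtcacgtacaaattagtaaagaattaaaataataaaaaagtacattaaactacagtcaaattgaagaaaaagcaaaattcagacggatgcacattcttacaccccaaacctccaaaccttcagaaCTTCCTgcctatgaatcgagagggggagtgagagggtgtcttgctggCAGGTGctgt
Zap70, chr1:36761548-36761797, plus strand: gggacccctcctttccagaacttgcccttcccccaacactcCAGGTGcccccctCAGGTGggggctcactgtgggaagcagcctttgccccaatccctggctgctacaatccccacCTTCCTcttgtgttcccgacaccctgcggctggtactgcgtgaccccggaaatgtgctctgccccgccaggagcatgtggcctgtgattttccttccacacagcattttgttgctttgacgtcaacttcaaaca

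The Cd8a window held none of the 4 motifs as spelled. Cd3g held CAGGTG at 148 to 143 and at 35 to 30 bases before the start, both on the minus strand of the window, and AGATAA at 104 to 99 bases. Cd247 had AGGAAG on the minus strand at 57 to 52 bases and CAGGTG at 10 to 5 bases. In Zap70 AGGAAG lay on the minus strand at 134 to 129 bases, and CAGGTG occurred at 209 to 204 and at 196 to 191 bases. Among 32851 promoter windows of the same length, 14% held the RUNX motif, 29.5% the ETS motif, 17.2% the E protein motif and 10.0% the GATA motif. These are matches of letters only, and factor binding was not measured.

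The first question was how each form of antigen left the 8 genes relative to saline. Transcripts of the CD8 coreceptor were lower after 3 of the 4 antigens. Cd8b1, which encodes the CD8 beta chain, fell after TER119-SIINFEKL to 0.52 of its Naive level. After ERY1-OVA and OVA the beta chain fell to 0.68 and 0.72 of it, and Cd8a, the alpha chain, fell to between 0.73 and 0.80 after those 3 antigens. Free SIINFEKL changed neither chain beyond the threshold.

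Cd8b1 measured 1037.5, 960.1 and 1047.9 RPKM in the Naive libraries. It measured 758.9, 761.7 and 679.6 RPKM after OVA, 680.5, 713.5 and 670.6 RPKM after ERY1-OVA, 802.6 and 822.9 RPKM after SIINFEKL, and 570.1, 482.2 and 536.3 RPKM after TER119-SIINFEKL. All 11 antigen libraries lay below all 3 Naive libraries, and the TER119-SIINFEKL libraries lay below all others. In order of group mean, Naive did not overlap with SIINFEKL nor SIINFEKL with OVA, while OVA and ERY1-OVA overlapped, and ERY1-OVA was separate from TER119-SIINFEKL. The log2 fold change against Naive was -0.94 ± 0.11 (SE) after TER119-SIINFEKL (limma, Benjamini-Hochberg adjusted p = 1.5e-05). It was -0.56 ± 0.11 after ERY1-OVA (limma adjusted p = 0.0013) and -0.47 ± 0.11 after OVA (limma adjusted p = 0.0033). After SIINFEKL it was -0.32 ± 0.12 (limma adjusted p = 0.089), and it passed, at 0.05 after rounding, when OVA replicate 1 and TER119-SIINFEKL replicate 1 were left out. Corrected for gene length and GC content, the change after OVA was larger, -0.73 ± 0.10.

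Cd8a measured 398.5, 354.1 and 372.0 RPKM in Naive cells and 274.2, 276.1 and 264.7 RPKM after OVA. It measured 297.1, 302.7 and 293.8 RPKM after ERY1-OVA, 302.7, 246.9 and 276.8 RPKM after TER119-SIINFEKL, and 357.6 and 318.3 RPKM after SIINFEKL. The only antigen library within the Naive range was SIINFEKL replicate 1. The log2 fold change was -0.46 ± 0.10 after OVA (limma adjusted p = 0.0024), -0.45 ± 0.10 after TER119-SIINFEKL (limma adjusted p = 0.0029) and -0.33 ± 0.10 after ERY1-OVA (limma adjusted p = 0.021). The call after ERY1-OVA was lost without Naive replicate 1 (limma adjusted p = 0.078), Naive replicate 3 (0.052) or ERY1-OVA replicate 3 (0.059). After SIINFEKL it was -0.15, with a 95% interval of -0.40 to 0.10.

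The chains of the receptor complex changed less evenly. Cd3e, Cd3g and Cd247, which encode the epsilon, gamma and zeta chains, were each lower than Naive in at least 1 comparison, and Cd3d, the delta chain, in none. OVA lowered Cd3e and Cd3g, ERY1-OVA lowered Cd3g, and TER119-SIINFEKL lowered Cd247. The largest called change was that of Cd3g after OVA, to 0.67 of the Naive level.

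Cd3e gave 431.1, 407.1 and 405.3 RPKM in Naive cells, 316.9, 328.6 and 301.3 RPKM after OVA, and 412.7 and 411.9 RPKM after SIINFEKL. It gave 374.7, 357.5 and 351.5 RPKM after ERY1-OVA and 387.4, 359.1 and 368.3 RPKM after TER119-SIINFEKL. The OVA libraries were below all others, the targeted groups lay between, and the SIINFEKL pair lay within the Naive range. Against Naive the log2 fold change was -0.39 ± 0.09 after OVA (limma adjusted p = 0.0033), -0.20 ± 0.09 after ERY1-OVA (0.098) and -0.16 ± 0.09 after TER119-SIINFEKL (0.17). With the length and GC correction the last 2 passed, at -0.29 (limma adjusted p = 0.0071) and -0.26 (0.012). After SIINFEKL it was -0.01, with an interval of -0.23 to 0.21. Cd3e shares 135 exonic bases with Gm48719, a gene on the opposite strand.

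Cd3g was measured at 636.3, 524.1 and 613.8 RPKM in Naive cells, 417.2, 398.6 and 370.5 RPKM after OVA and 428.3, 437.5 and 481.3 RPKM after ERY1-OVA. It was measured at 509.8 and 602.4 RPKM after SIINFEKL and 565.1, 376.7 and 458.7 RPKM after TER119-SIINFEKL. Neither ovalbumin group overlapped with Naive, whereas replicate 1 of TER119-SIINFEKL and replicate 2 of SIINFEKL lay within the Naive range. Cd3g fell by 0.58 ± 0.15 on the log2 scale after OVA (limma adjusted p = 0.0056). It fell by 0.39 ± 0.15 after ERY1-OVA (limma adjusted p = 0.045), a call lost without Naive replicate 1 (0.13) or 3 (0.12) and without ERY1-OVA replicate 1 (0.11), 2 (0.11) or 3 (0.059). After TER119-SIINFEKL the change was -0.36 ± 0.15 (limma adjusted p = 0.058). There it passed without TER119-SIINFEKL replicate 1 (-0.50, limma adjusted p = 0.0093), without Naive replicate 2 (-0.44, 0.046) and with the length and GC correction (-0.51, 0.006).

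Cd247 stood at 189.7, 179.1 and 184.7 RPKM in Naive cells and at 151.2, 121.1 and 132.0 RPKM after TER119-SIINFEKL. It stood at 156.2, 153.2 and 143.0 RPKM after OVA, 157.0, 169.1 and 163.4 RPKM after ERY1-OVA, and 139.0 and 189.6 RPKM after SIINFEKL. Of the antigen libraries, 10 of 11 were below all Naive libraries, and the exception was SIINFEKL replicate 2. The fall of 0.46 ± 0.12 on the log2 scale after TER119-SIINFEKL passed (limma adjusted p = 0.0065), while the change after OVA was -0.29 ± 0.12 (0.058, and 0.032 with the length and GC correction). Cd247 shares 3007 exonic bases with Pou2f1 on the opposite strand. Pou2f1 was measured at 6.7 to 9.4 RPKM in Naive cells and 4.6 to 8.1 RPKM after TER119-SIINFEKL (limma adjusted p = 0.1). The kit marks strand, but whether counting used it is not given in the sources used here.

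Cd3d varied more within groups than any other of the 8 genes (within-group SD 0.33 on the log2 scale, against 0.05 for Cd3e). It measured 524.6, 385.7 and 457.4 RPKM in Naive cells, 463.6, 328.1 and 304.3 RPKM after OVA and 597.0, 313.7 and 385.7 RPKM after TER119-SIINFEKL. It measured 362.1, 505.4 and 447.6 RPKM after ERY1-OVA and 541.0 and 493.5 RPKM after SIINFEKL. In OVA and TER119-SIINFEKL the highest value came from replicate 1, where long genes read low (-0.47 and -0.46 above), and in ERY1-OVA from replicate 2, where the same correlation was -0.33. Every antigen group overlapped with Naive. No Cd3d change passed, and the largest was -0.33 ± 0.23 after OVA (limma adjusted p = 0.24). With OVA replicate 1 and TER119-SIINFEKL replicate 1 left out it was -0.52 (limma adjusted p = 0.024), and with the length and GC correction -0.55 ± 0.15 (0.0068). Whether fragment length or marker levels of other cells account for the spread was not tested.

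Among the kinases, Zap70, whose product docks on phosphorylated CD3 and zeta chains, rose after TER119-SIINFEKL to 1.38 times its Naive level. Lck, whose product phosphorylates those chains, passed in no comparison with the deposited values, but was called lower after 3 antigens under quantile normalization.

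Zap70 was at 94.8, 109.5 and 111.2 RPKM in Naive cells and at 138.2, 144.8 and 150.7 RPKM after TER119-SIINFEKL. It was at 107.0, 127.6 and 111.6 RPKM after OVA, 129.0, 107.2 and 111.3 RPKM after ERY1-OVA, and 110.6 and 113.5 RPKM after SIINFEKL. The TER119-SIINFEKL libraries were above all 11 others, and the remaining groups overlapped with Naive. The log2 fold change after TER119-SIINFEKL was 0.46 ± 0.11 (limma adjusted p = 0.0031). Quantile normalization, which forces every library to the same distribution, reduced it to 0.27 and ended the call (limma adjusted p = 0.065), and the length and GC correction gave 0.58 ± 0.09. After OVA and ERY1-OVA it was 0.13 ± 0.11 and 0.14 ± 0.11, neither called, and quantile normalization turned these to -0.09 and -0.01. Correcting for length and GC content gave a change after ERY1-OVA of 0.27 ± 0.09, which passed (limma adjusted p = 0.019, and 0.032 with the replicate block).

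Lck was at 486.3, 379.5 and 477.0 RPKM in Naive cells, 404.1, 413.0 and 382.4 RPKM after OVA and 378.3, 414.6 and 450.5 RPKM after ERY1-OVA. It was at 414.4 and 489.1 RPKM after SIINFEKL and 421.5, 347.1 and 395.9 RPKM after TER119-SIINFEKL. Every group overlapped with Naive, since Naive replicate 2 was itself low. The log2 fold changes were -0.15 (95% interval -0.43 to 0.12) after OVA, -0.11 (-0.38 to 0.17) after ERY1-OVA, 0.02 (-0.29 to 0.33) after SIINFEKL and -0.20 (-0.48 to 0.07) after TER119-SIINFEKL. Under quantile normalization Lck was lower than Naive after OVA (-0.37, limma adjusted p = 0.0071), ERY1-OVA (-0.27, 0.041) and TER119-SIINFEKL (-0.34, 0.011). With quantile normalization it was also lower than after SIINFEKL, both after OVA (-0.47, limma adjusted p = 0.0037) and after TER119-SIINFEKL (-0.44, 0.0062), and its targeting effect differed between protein and peptide by 0.55 (0.01). Array weights called it lower after TER119-SIINFEKL as well (-0.23, limma adjusted p = 0.048).

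**Figure D2:**
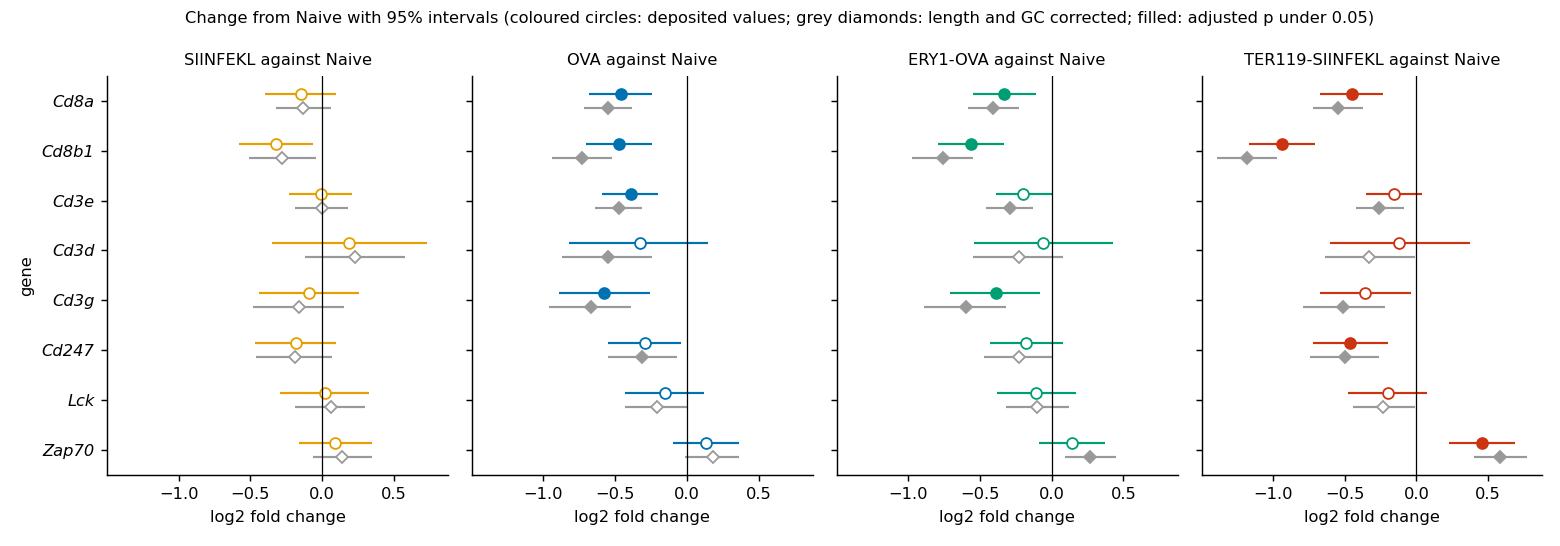
Log2 fold change of each gene against Naive (horizontal axis) with its 95% interval, for the 4 antigen groups. Coloured circles are the deposited values, grey diamonds the values corrected for gene length and GC content, and filled symbols passed an adjusted p of 0.05. Among the circles Cd8b1 after TER119-SIINFEKL lies farthest to the left at -0.94, with its diamond at -1.18, Zap70 after TER119-SIINFEKL is the only filled circle to the right of 0, and no symbol is filled after SIINFEKL.

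Counted together, 4 of the 8 genes were lower after OVA and none higher, where 23.1% of all genes tested were lower and 24.4% higher. After ERY1-OVA 3 were lower and none higher, against 19.0% lower and 20.9% higher among all genes. After TER119-SIINFEKL 3 were lower and 1 higher, against 23.0% lower and 24.6% higher among all genes. None passed after SIINFEKL, where 8.34% of all genes were lower and 7.58% higher. The median log2 fold change of the 8 was -0.36 after OVA, -0.19 after ERY1-OVA, -0.05 after SIINFEKL and -0.28 after TER119-SIINFEKL, beside medians over all genes of -0.04, -0.01, -0.01 and 0.00. These 4 comparisons share the Naive libraries. All 11 calls against Naive were kept when OVA replicate 1 and TER119-SIINFEKL replicate 1 were left out together. Leaving out single Naive or ERY1-OVA libraries gave 1 to 3 members called after ERY1-OVA. Of all genes, 1644 to 1960 were then higher and 1362 to 1715 lower (2048 and 1857 with all libraries).

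A ratio of 2 genes within a library does not depend on how that library was scaled. The 5 ratios were compared between the 3 Naive and the 11 antigen libraries by a two-sided exact permutation test, whose smallest possible p was 0.0027. None passed after adjustment over the 5. Cd8b1 over Cd8a was 2.60 to 2.82 in Naive libraries and 1.88 to 2.77 in antigen libraries (log2 difference of means -0.23, exact permutation p = 0.069, adjusted 0.14). Its value differed by antigen: 2.57 to 2.77 after OVA, 2.28 to 2.36 after ERY1-OVA, 2.24 and 2.59 after SIINFEKL, and 1.88 to 1.95 after TER119-SIINFEKL. The OVA libraries thus overlapped with Naive, since both chains had moved alike, while both erythrocyte-targeted groups lay below all Naive and OVA libraries. This was not particular to targeting, since SIINFEKL replicate 1, with the free peptide, lay below them too, at 2.24. That comparison of single groups was made after the values were seen and has no test. With the length and GC correction the log2 ratio was 1.40 to 1.63 in Naive, 1.22 to 1.45 after OVA, 1.23 to 1.52 after SIINFEKL, 1.11 to 1.28 after ERY1-OVA and 0.72 to 1.03 after TER119-SIINFEKL. There ERY1-OVA overlapped with OVA, and TER119-SIINFEKL remained below all other libraries.

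Zap70 over Lck was 0.19 to 0.29 in Naive libraries and 0.33 to 0.42 after TER119-SIINFEKL, without overlap. Over all antigen libraries the log2 difference was 0.34 (exact permutation p = 0.082, adjusted 0.14). Cd3g over Cd3e was 1.29 to 1.51 in Naive libraries, and 7 of the 11 antigen libraries lay below (log2 difference -0.17, exact permutation p = 0.085, adjusted 0.14). Cd247 over Cd3e was 0.44 to 0.46 in Naive libraries, 0.47 to 0.49 after OVA and 0.34 to 0.39 after TER119-SIINFEKL, so these antigen groups lay on either side of Naive. All 11 antigen libraries fell outside the narrow Naive range, 5 below and 6 above. The pooled difference of that ratio was -0.08 (exact permutation p = 0.54, adjusted 0.57). Cd3d over Cd3e gave 0.10 (exact permutation p = 0.57, adjusted 0.57).

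**Figure D3:**
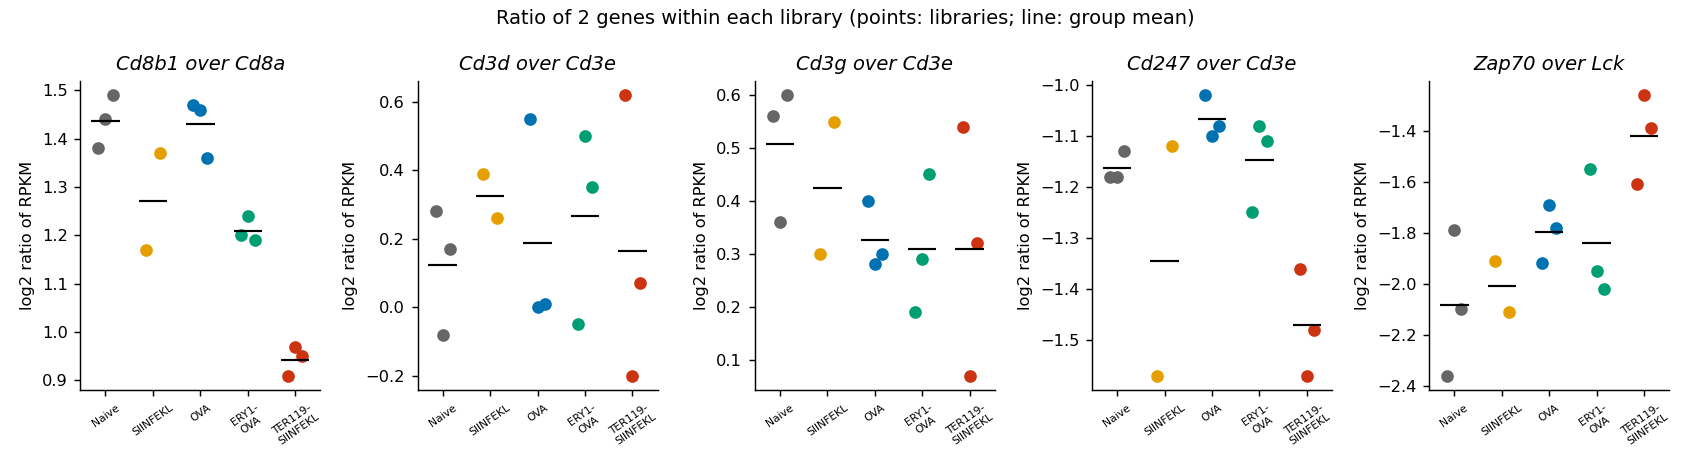
Log2 ratio of 2 genes within each library (vertical axis, each panel with its own scale that does not start at 0) by group, where points are libraries and lines group means. In the first panel Naive and OVA overlap, from 1.36 to 1.49, while TER119-SIINFEKL lies at 0.91 to 0.97.

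The next question was whether binding the antigen to erythrocytes altered the genes relative to the free antigen. For whole ovalbumin no member passed between ERY1-OVA and OVA, a comparison in which 0.408% of all genes were higher and 0.654% lower (quantile normalization moved the higher share of calls from 38.5% to 60.6%). The difference in Cd3e was 0.20 ± 0.09 (limma adjusted p = 0.29), with the 3 ERY1-OVA libraries above the 3 OVA libraries, and that in Cd8b1 was -0.09 (95% interval -0.32 to 0.14). For the peptide, Cd8b1 was lower after TER119-SIINFEKL than after SIINFEKL by a log2 fold change of -0.62 ± 0.12 (limma adjusted p = 0.0015). Zap70 was higher by 0.37 ± 0.12 (limma adjusted p = 0.027). Neither gene's values overlapped between these groups, and 17.0% of all genes were lower and 20.4% higher. Cd8a did not overlap either, and its change of -0.30 ± 0.11 lay just outside the threshold (limma adjusted p = 0.055). It passed under 6 of 18 alternatives, among them quantile normalization (limma adjusted p = 0.0017) and the length and GC correction (0.0026). Leaving out single TER119-SIINFEKL libraries gave 1 to 4 members called, with 1624 to 1815 of all genes higher and 1348 to 1519 lower. The Zap70 call was lost under quantile normalization (0.15, limma adjusted p = 0.39) and without SIINFEKL replicate 1 (0.11) or 2 (0.078) or TER119-SIINFEKL replicate 2 (0.054) or 3 (0.081).

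The effect of targeting on the coreceptor differed between protein and peptide. Tested as the change from OVA to ERY1-OVA minus the change from SIINFEKL to TER119-SIINFEKL, Cd8b1 differed by 0.53 ± 0.16 (limma adjusted p = 0.021) and Cd8a by 0.43 ± 0.15 (limma adjusted p = 0.04). Cd8b1 had moved by -0.09 with the protein and by -0.62 with the peptide, and Cd8a by 0.13 and by -0.30. No other member passed with the deposited values, but most moved the same way. The difference was 0.59 ± 0.34 for Cd3d, 0.45 ± 0.22 for Cd3g and 0.39 ± 0.18 for Cd247. It was 0.35 ± 0.14 for Cd3e (limma adjusted p = 0.061), 0.27 ± 0.19 for Lck and -0.36 ± 0.16 for Zap70. The direction was thus not particular to the coreceptor. Of all genes, 17.1% were higher and 20.6% lower by this measure. Corrected for length and GC content, Cd3e (0.43, limma adjusted p = 0.0096), Cd3d (0.88, 0.0067) and Zap70 (-0.35, 0.045) passed as well. There 1735 of all genes were higher and 2225 lower. Under quantile normalization Cd3e, Cd3d, Cd3g, Cd247 and Lck passed (limma adjusted p at most 0.013), where 1976 of all genes were higher and 1786 lower. Cd8a lost its call without any 1 of 9 of the 11 antigen libraries. Without OVA replicate 1, 2 or 3 its limma adjusted p was 0.055, 0.057 or 0.082, and without ERY1-OVA replicate 1, 2 or 3 it was 0.06, 0.076 or 0.063. Without SIINFEKL replicate 1 it was 0.15, and without TER119-SIINFEKL replicate 2 or 3 it was 0.089 or 0.072. With the replicate block it was 0.053. Leaving out single OVA, ERY1-OVA or TER119-SIINFEKL libraries gave 0 to 5 members called. Of all genes, 1366 to 1585 were then higher and 1723 to 1962 lower. Cd8b1 lost its call without OVA replicate 3 (limma adjusted p = 0.054) or SIINFEKL replicate 2 (0.06).

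The targeted antigens were also compared with each other, and the free ones with each other. Between ERY1-OVA and TER119-SIINFEKL no member passed, where 0.0715% of all genes were higher and 0.490% lower. Cd8b1 was 670.6 to 713.5 RPKM against 482.2 to 570.1 RPKM (0.38 ± 0.11, limma adjusted p = 0.16) and Zap70 107.2 to 129.0 RPKM against 138.2 to 150.7 RPKM (-0.32 ± 0.11, 0.24), so neither overlapped. Between OVA and SIINFEKL, Cd3e was lower after OVA by -0.39 ± 0.10 (limma adjusted p = 0.0082), Cd3g by -0.49 ± 0.16 (0.027) and Cd8a by -0.31 ± 0.11 (0.041), where 19.9% of all genes were lower and 22.4% higher. Cd3d (-0.52 ± 0.25, limma adjusted p = 0.11) and Cd8b1 (-0.15 ± 0.12, 0.34) did not pass as deposited, though neither gene's values overlapped. With the length and GC correction both passed, at -0.78 (limma adjusted p = 0.0019) and -0.45 (0.0047). Both also passed under quantile normalization (0.0026 and 0.00033), as did Cd247 (0.0072). Fitted to the 5 OVA and SIINFEKL libraries alone, none of Cd3e, Cd3g and Cd8a passed (limma adjusted p = 0.081, 0.059 and 0.14). Leaving out single OVA libraries gave 1 to 3 members called, with 1914 to 2027 of all genes higher and 1506 to 1713 lower. Cd8a was lost without any OVA library (replicate 1, 0.065; replicate 2, 0.066; replicate 3, 0.1) or SIINFEKL replicate 1 (0.24), and with the replicate block (0.057). Cd3g was lost without OVA replicate 2 (0.052) or 3 (0.079) or SIINFEKL replicate 2 (0.18).

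Genes that act with these 8 were described by lists of their role. None of the 10 listed names for receptor constant genes was found in the table. The shares of all genes tested, against which the counts are to be read, were 23.1% lower and 24.4% higher after OVA, 19.0% and 20.9% after ERY1-OVA, 8.34% and 7.58% after SIINFEKL, and 23.0% and 24.6% after TER119-SIINFEKL. Among 19 adaptors and enzymes downstream of ZAP-70, 6 were lower and 1 higher than Naive after OVA (median -0.21), 4 and 2 after ERY1-OVA (median -0.09), 2 and 1 after SIINFEKL (median -0.03), and 6 and 2 after TER119-SIINFEKL (median -0.17). Under quantile normalization 12 were lower after OVA, where 2714 of all 9793 genes were lower (2267 as deposited). After SIINFEKL 0 were lower without SIINFEKL replicate 1, 6 without SIINFEKL replicate 2 and 1 without Naive replicate 2, and 0 in a fit to the SIINFEKL and Naive libraries alone. After TER119-SIINFEKL Malt1, a protease that acts with BCL10 upstream of NF-kappaB, changed by -1.34 ± 0.11 and Grap2, the adaptor GADS that bridges LAT and SLP-76, by -0.83 ± 0.10. Their limma adjusted p-values were 1e-06 and 1.8e-05.

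Both genes were also lower after both ovalbumin forms. Malt1 was at 30.4 to 32.9 RPKM in Naive cells, at 17.0 to 19.0 RPKM in the 6 ovalbumin libraries and at 12.3 to 12.8 RPKM after TER119-SIINFEKL. Grap2 changed by -0.65 ± 0.10 after OVA and -0.57 ± 0.10 after ERY1-OVA (limma adjusted p = 0.00016 and 0.00055). After SIINFEKL Trat1, the adaptor TRIM that associates with the receptor, fell by 2.14 ± 0.50 on the log2 scale (limma adjusted p = 0.012), from 20.5 to 29.5 RPKM in Naive cells to 2.4 and 11.6 RPKM. Without SIINFEKL replicate 1 the change was -1 and did not pass (limma adjusted p = 0.2). Sh2d2a, the adaptor TSAd, rose after every antigen: by 0.39 ± 0.12 after OVA (limma adjusted p = 0.019), 0.52 ± 0.12 after ERY1-OVA (0.0046), 0.72 ± 0.12 after TER119-SIINFEKL (0.00035) and 0.47 ± 0.14 after SIINFEKL (0.034). The call after SIINFEKL was lost without SIINFEKL replicate 1 (0.28) or Naive replicate 1 (0.1) or 3 (0.087). Lat, the scaffold phosphorylated by ZAP-70, passed in none of the 4 comparisons, with changes from -0.11 to 0.09.

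Of 22 listed regulators of LCK and ZAP-70, 21 were tested. There were 3 higher and 2 lower after OVA (median 0.04), 5 and 2 after ERY1-OVA (median 0.09), 6 and 1 after SIINFEKL (median 0.17) and 6 and 3 after TER119-SIINFEKL (median 0.09). Without SIINFEKL replicate 1 there was 1 higher after SIINFEKL. Without Naive replicate 1 or 3 there were 3 higher after ERY1-OVA, and without TER119-SIINFEKL replicate 3 there were 3 higher after TER119-SIINFEKL. Quantile normalization gave 7 lower after OVA and 3 higher after TER119-SIINFEKL. With it 2714 of all 9793 genes were lower after OVA (2267 as deposited) and 2144 higher after TER119-SIINFEKL (2406). Unc119, which binds LCK and aids its activation and transport, rose after every antigen: by 1.51 ± 0.14 after OVA, 1.57 ± 0.14 after ERY1-OVA, 1.31 ± 0.15 after SIINFEKL and 1.76 ± 0.14 after TER119-SIINFEKL (limma adjusted p at most 0.00018). Its level was 6.9 to 8.9 RPKM in Naive cells and 16.9 to 29.4 RPKM in the antigen libraries. Pag1, the membrane adaptor that brings the inhibitory kinase CSK to LCK, fell by 0.94 ± 0.15 after OVA, by 0.91 ± 0.15 after ERY1-OVA, by 0.62 ± 0.17 after SIINFEKL and by 1.37 ± 0.15 after TER119-SIINFEKL (limma adjusted p = 0.00022, 0.00035, 0.024 and 8.1e-06).

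Sla2, the adaptor SLAP-2 that takes part in downregulating the receptor, fell by 0.87 ± 0.14 after TER119-SIINFEKL (limma adjusted p = 0.00022), by 0.49 ± 0.14 after OVA (0.011) and by 0.51 ± 0.14 after ERY1-OVA (0.01). After SIINFEKL its change was -0.15 ± 0.16 (limma adjusted p = 0.56). Ubash3b, the phosphatase STS-1 that acts on ZAP-70, was at most 12.3 RPKM in Naive cells and at 28.9 and 18 RPKM after SIINFEKL (0.98 ± 0.18, limma adjusted p = 0.004). Lax1, an inhibitory membrane adaptor, rose by 0.87 ± 0.16 after SIINFEKL (limma adjusted p = 0.0036), by 0.63 ± 0.14 after ERY1-OVA (0.0038) and by 0.63 ± 0.14 after TER119-SIINFEKL (0.0029), and was 0.27 ± 0.14 after OVA (0.13). Dok2, an inhibitory adaptor, rose after all 4 antigens, by 0.58 ± 0.14 after OVA (limma adjusted p = 0.0038), 0.57 ± 0.14 after ERY1-OVA (0.0054), 0.56 ± 0.15 after SIINFEKL (0.028) and 0.43 ± 0.14 after TER119-SIINFEKL (0.02). Without SIINFEKL replicate 1 neither Ubash3b (0.64, limma adjusted p = 0.078) nor Lax1 (0.59, 0.071) passed after SIINFEKL. Csk, Ptpn22, the phosphatase that removes the activating phosphate of LCK, Ptprc, which encodes CD45, and Fyn, the other Src kinase of T cells, passed in none of the 4 comparisons. The nearest to the threshold among them was Ptpn22 after SIINFEKL (0.35 ± 0.11, limma adjusted p = 0.052).

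Among 10 surface partners of the receptor, 3 were higher and 1 lower after OVA (median 0.09), 3 and 0 after ERY1-OVA (median 0.20), 4 and 0 after SIINFEKL (median 0.20) and 4 and 2 after TER119-SIINFEKL (median 0.33). Under quantile normalization 4 were lower after OVA, 4 after ERY1-OVA and 4 after TER119-SIINFEKL. Of all 9793 genes it called 2714, 2326 and 2580 lower in that order (2267, 1857 and 2251 as deposited). Leaving out single libraries gave 0 to 2 lower after OVA and 1 to 3 lower after TER119-SIINFEKL. Slamf6, a receptor of the SLAM family, was at 28.9 to 33.4 RPKM in Naive cells, 75.5 to 82.9 RPKM after OVA, 101.0 to 124.7 RPKM after ERY1-OVA, 107.6 and 202.7 RPKM after SIINFEKL and 137.4 to 148.7 RPKM after TER119-SIINFEKL. It rose in all 4 comparisons, by 1.37 ± 0.17, 1.85 ± 0.17, 2.25 ± 0.19 and 2.19 ± 0.17 in that order (limma adjusted p at most 3.7e-05). Cd28 and Cd27, both costimulatory receptors, rose as well. Cd28 rose by 0.66 to 1.00 and Cd27 by 0.38 to 0.83 over the 4 antigens. The Cd27 call after OVA was lost under quantile normalization, which reduced the log2 fold change from 0.38 to 0.11.

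**Figure D4:**
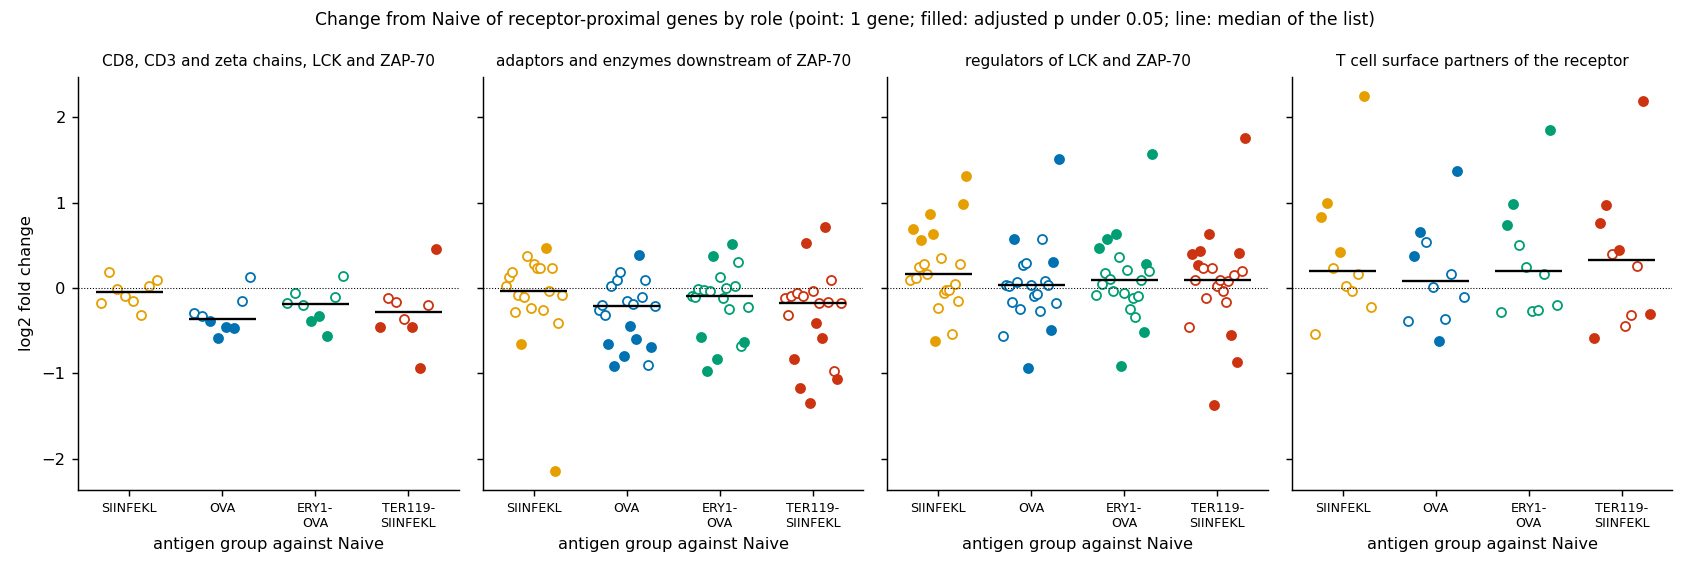
Log2 fold change against Naive (vertical axis) of the 8 genes and of 3 lists of genes acting with them, by antigen group, where a point is a gene, filled points passed an adjusted p of 0.05 and lines are list medians. The 8 genes span -0.94 to 0.46, and Slamf6 and Unc119 are the highest points of their panels after TER119-SIINFEKL, at 2.19 and 1.76.

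The genes whose profiles over the 14 libraries lay nearest to each member, after each was centred on its own Naive mean, were found by root mean square distance on the log2 scale. Tpst2 was nearest to Cd8b1 (0.09), followed by Sla2 (0.13) and Hsdl1 (0.13). The 3 nearest to Cd8a were Fam53a (0.10), Zfp672 (0.11) and Smpd1 (0.11), and to Cd3e Dcaf11 (0.07), Mkrn1 (0.08) and Lin7c (0.08). For Cd3g they were H2-T23 (0.10), Rnasek and Gm12942 (0.12 each), for Cd247 Rab5a, Gpbp1 (0.10 each) and Lysmd3 (0.12), and for Cd3d AI462493 (0.11), Sepp1 and Pfdn5 (0.13 each). Lck lay nearest to Krcc1 (0.09), Rgs19 and Ddx50 (0.10 each), and Zap70 to Tspan5, Agfg1 and Was (0.11 each). No member was among the 3 nearest genes of another member.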

How the data were processed

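RNA from 14 sorted OT-I samples in 5 groups was sequenced with a stranded mRNA kit, per the labels' protocols. The authors deposited 1 table of log2 RPKM per gene and library. RPKM is a read count divided by gene length and library total, and the deposited values were used as log2 since 4.3% were negative. Without roles, STAR 2.4.2, edgeR, bcl2fastq 2.17.1.14 and GRCm38/mm10 are listed, per the submitters' processing notes. The counter, strand setting, gene lengths and any prior count are not given in the sources used here. A prior count would draw low values together. Counts were not used, so no counting interval is given.

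Genes with a mean of at least 1 RPKM (9793, with 313 removed) were fitted by limma 3.58.1 in R 4.3.3 with a mean-variance trend, 1 mean per group and all 14 libraries, so the SIINFEKL pair shares the spread of the other groups. Tests were two-sided, with Benjamini-Hochberg adjustment over all genes tested and a threshold of 0.05. The step was tested on simulated data. Ratios were tested by exact permutation. Plots were drawn with matplotlib 3.10.9, and tables made with numpy 2.4.6 and pandas 2.3.3 under Python 3.11.15.

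The length and GC correction removed, in each library, the loess trend (span 0.5) of a gene's deviation from its mean over libraries on exon length and GC content, for 9716 genes. Other alternatives were quantile and median-of-ratios scaling, pseudocounts of 0.1 and 1, no filter or a minimum of 3 RPKM, no trend, array weights, replicate number as a block, only the groups compared, and libraries left out.

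The members and lists were chosen with earlier results of these data known. From each pathway list and comparison with Naive, up to 3 called genes with the smallest adjusted p and no overlap between groups were named, plus Lat, Fyn, Csk, Ptpn22 and Ptprc. Some genes that this rule names are not reported here. The genes nearest to a member were those with the 3 smallest distances. Same-numbered libraries deviated together in every pair of TER119-SIINFEKL with Naive (correlations 0.259, 0.322 and 0.300). The same held for TER119-SIINFEKL with OVA (0.665, 0.292 and 0.247). Differently numbered libraries reached similar values, such as 0.573 for ERY1-OVA replicate 2 with TER119-SIINFEKL replicate 1. The labels give no shared batch, and the pairing rests on these correlations alone. Between TER119-SIINFEKL and Naive the block changed no member's call.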

Additional observations from a re-analysis of the deposited data

Results flagged for a closer look

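The effect of erythrocyte targeting on the CD8 chains passed a test of the difference itself between protein and peptide, but the Cd8a call was not stable. For Cd8b1 the effect on protein minus that on peptide was 0.53 ± 0.16 on the log2 scale (limma, Benjamini-Hochberg adjusted p = 0.021), and ERY1-OVA overlapped with OVA while all 3 TER119-SIINFEKL libraries lay below both SIINFEKL libraries. Of all genes 17.1% were higher by this measure. With the deposited values Cd3d, Cd3g, Cd247, Cd3e and Lck went the same way without a call, at 0.59, 0.45, 0.39, 0.35 and 0.27. Zap70 went the other way, at -0.36. Cd3d, Cd3e and Zap70 passed with the length and GC correction (limma adjusted p = 0.0067, 0.0096 and 0.045). For Cd8a it was 0.43 ± 0.15 (limma adjusted p = 0.04), a call lost without any 1 of 9 of the 11 antigen libraries, with the replicate block (0.053) and with only the groups compared (0.064). The Cd8b1 call was lost without OVA replicate 3 (0.054) or SIINFEKL replicate 2 (0.06). In Cd8a all ERY1-OVA libraries lay above all OVA libraries, and all TER119-SIINFEKL libraries below both SIINFEKL libraries. The protein and the peptide were targeted by different binders, so the binder and the form of the antigen cannot be told apart.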

How the results depend on the processing

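The 18 calls of members were recomputed under 347 combinations of result and alternative, of which 306 kept direction and call, 41 lost the call and 0 changed direction. The 54 results that were not called gave 1037, of which 919 were as before, 88 gained a call and 30 changed direction. Every call after OVA or TER119-SIINFEKL against Naive was kept under every alternative run, except that of Zap70 under quantile normalization.

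As deposited, 4 members were called after OVA, 3 after ERY1-OVA, 0 after SIINFEKL and 4 after TER119-SIINFEKL against Naive, 0 for ERY1-OVA against OVA, 2 for TER119-SIINFEKL against SIINFEKL, 0 for ERY1-OVA against TER119-SIINFEKL, 3 for OVA against SIINFEKL and 2 for the difference of the targeting effect. Quantile normalization gave 7 after OVA, 6 after ERY1-OVA and 6 after TER119-SIINFEKL. It gave 7 for TER119-SIINFEKL against SIINFEKL, 1 for ERY1-OVA against TER119-SIINFEKL, 7 for OVA against SIINFEKL and 7 for the difference. Over all genes it called 2036 higher and 2714 lower after OVA (2392 and 2267 as deposited), and 1790 and 2326 after ERY1-OVA (2048 and 1857). After TER119-SIINFEKL it called 2144 and 2580 (2406 and 2251). It called 1752 and 2032 for TER119-SIINFEKL against SIINFEKL (1996 and 1668) and 6 and 41 for ERY1-OVA against TER119-SIINFEKL (7 and 48). For OVA against SIINFEKL it called 1882 and 2388 (2189 and 1946), and for the difference 1976 and 1786 (1676 and 2018). Array weights gave 6 after OVA, 4 after ERY1-OVA and 7 after TER119-SIINFEKL. They gave 1 for ERY1-OVA against OVA, 3 for ERY1-OVA against TER119-SIINFEKL, 2 for OVA against SIINFEKL and 6 for the difference. Over all genes they called 751 higher and 994 lower for ERY1-OVA against OVA (40 and 64 as deposited). They called 476 and 816 for ERY1-OVA against TER119-SIINFEKL, 1867 and 1389 for OVA against SIINFEKL and 1655 and 2096 for the difference. After OVA they called 2935 and 3073, after ERY1-OVA 2529 and 2475, and after TER119-SIINFEKL 3176 and 2952. The length and GC correction, with or without the replicate block, gave 6 after OVA, and 5 lower and 1 higher after TER119-SIINFEKL. Without the block it gave 5 after ERY1-OVA, 5 for TER119-SIINFEKL against SIINFEKL, 5 for OVA against SIINFEKL and 5 for the difference. With the block these were 5, 4, 5 and 4. Over all genes the correction without the block called 2251 higher and 2120 lower after ERY1-OVA, and 2195 and 1744 for TER119-SIINFEKL against SIINFEKL. After OVA it called 2568 and 2406, and after TER119-SIINFEKL 2680 and 2324. It called 2361 and 2027 for OVA against SIINFEKL and 1735 and 2225 for the difference. Fits to only the groups compared, with fewer samples, gave 5 after OVA, 1 for TER119-SIINFEKL against SIINFEKL, 0 for OVA against SIINFEKL and 1 for the difference. Over all genes these fits called 2489 higher and 2525 lower after OVA, and 1326 and 805 for TER119-SIINFEKL against SIINFEKL. They called 1701 and 1321 for OVA against SIINFEKL and 1509 and 1877 for the difference. Leaving out OVA replicate 1 and TER119-SIINFEKL replicate 1 together gave 5 after OVA, 1 after SIINFEKL, and 4 lower and 1 higher after TER119-SIINFEKL. It gave 5 for TER119-SIINFEKL against SIINFEKL, 4 for OVA against SIINFEKL and 5 for the difference. Over all genes 880 were then higher and 1005 lower after SIINFEKL (742 and 817 as deposited). For TER119-SIINFEKL against SIINFEKL they were 1969 and 1453, and for the difference 1492 and 1898. After OVA they were 2209 and 2093, after TER119-SIINFEKL 2401 and 2118, and for OVA against SIINFEKL 2108 and 1802. Leaving out each library in turn gave 1 to 3 after ERY1-OVA, 1 to 4 for TER119-SIINFEKL against SIINFEKL, 1 to 3 for OVA against SIINFEKL and 0 to 5 for the difference. Where 1 SIINFEKL library remained, the fit took its spread from the other groups, an assumption. The cause of these shifts was not tested.

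The replicate block left 1 member called for the difference, where 1648 of all genes were higher and 1960 lower. It ended only the calls of Cd3g after ERY1-OVA (limma adjusted p = 0.055) and Cd8a between OVA and SIINFEKL (0.057) and for the difference (0.053). In the ratio tests permutation within replicate numbers gave exact p = 0.1 for Cd8b1 over Cd8a, 0.54 for Cd3d over Cd3e, 0.1 for Cd3g over Cd3e, 0.57 for Cd247 over Cd3e and 0.12 for Zap70 over Lck. Of 26 same-numbered pairs of libraries, 14 had a correlation over 0.1 (range -0.443 to 0.665).

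Direction changed only among uncalled results. Under quantile normalization Zap70 was -0.09 after OVA, -0.01 after ERY1-OVA and -0.22 for OVA against SIINFEKL, Cd3e was 0.11 after SIINFEKL and Cd8b1 0.01 for ERY1-OVA against OVA. Median-of-ratios rescaling gave Cd3e 0.00 after SIINFEKL and Zap70 -0.01 for ERY1-OVA against OVA. Array weights gave Cd3d 0.01 after ERY1-OVA, Lck -0.01 after SIINFEKL, Zap70 -0.04 for ERY1-OVA against OVA and Cd3g 0.01 for ERY1-OVA against TER119-SIINFEKL. With both libraries left out the last 2 were -0.05 and 0.11. Leaving out 1 library at a time gave Cd3d -0.17 to 0.07 after ERY1-OVA and -0.38 to 0.09 after TER119-SIINFEKL. After SIINFEKL it gave Cd3e -0.02 to 0.02, Lck -0.10 to 0.14, Cd3g -0.21 to 0.03 and Cd247 -0.41 to 0.04. For ERY1-OVA against OVA Zap70 ran from -0.08 to 0.08 and Lck from -0.01 to 0.11. For OVA against SIINFEKL Zap70 ran from -0.04 to 0.09 and Cd247 from -0.33 to 0.12, and for ERY1-OVA against TER119-SIINFEKL Cd3d from -0.14 to 0.32 and Cd3g from -0.18 to 0.11. The Cd3d over Cd3e difference between antigen and Naive libraries ran from 0.00 to 0.18. With depth unknown and 2 or 3 libraries a group, an uncalled gene is not shown to be alike in the groups compared.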
